A study of Mus musculus with 3 samples.

Results

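The AP-1 transcription factors studied here were the 9 genes Fos, Fosb, Fosl1, Fosl2, Jun, Junb, Jund, Atf3 and Maff, taken by name from a table of 56833 mouse genes. All 9 were in the table, and all 9 had a mean of at least 50 normalized counts over the 3 libraries, as did 11873 genes in total. RNA was measured by sequencing in cells from the ankle synovium of mice carrying Efhd1CreER, a Cre recombinase that acts only after tamoxifen and is driven from the Efhd1 gene, and the Ai9 reporter, which makes tdTomato in cells where Cre has acted. The cells were sorted for tdTomato and kept for 24 h on plates coated with collagen, whose stiffness was 0.2 kPa (the soft plate), 8 kPa (the intermediate plate) or 64 kPa (the stiff plate). Genotype, tissue, sort and coating were shared by all 3 groups, which differed in stiffness alone according to the labels. There was 1 library per stiffness, so nothing below was replicated or tested, and a difference between plates cannot be told apart from a difference between cultures. The number of mice behind each library is not given in the sources used here, and neither is tamoxifen dosing.

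AP-1 is a dimer of basic leucine zipper proteins that binds the DNA element TGACTCA and, with some partners, TGACGTCA. Jun proteins pair with themselves or with Fos proteins, whereas Fos proteins need a Jun partner. Many of the genes are immediate early genes, transcribed within minutes of a growth factor, cytokine or mechanical stimulus through kinases of the MAPK pathways, and AP-1 is known in synovial fibroblasts for driving matrix metalloproteinase genes.

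The libraries held between 25487064 and 28081600 reads. The labels call the sorted cells telocytes, interstitial cells with long thin processes. Of 8 genes fixed as telocyte markers, Pdgfra stood between 5118 and 6298 normalized counts and Cd34 between 235 and 318. Vim, common to many mesenchymal cells, made up most of the list's counts, with 94005 to 111934, and Kit, Pi16 and Foxl1 stood between 38.7 and 45.1, 185 and 258, and 186 and 238. By contrast, Efhd1 had 10, 5 and 3 reads and Dpp4 had 1, 0 and 2 reads in the soft, intermediate and stiff library. Genes of macrophages were present and higher on stiffer plates. Their 12 markers summed to 29005 normalized counts at 0.2 kPa, 35740 at 8 kPa and 62440 at 64 kPa, none was at 0, all 12 were higher in the stiff than in the soft library, and their median log2 ratio was 1.25. The macrophage sum was highest in the stiff library, where Fosb and Junb were at their lowest and the other 7 AP-1 genes at their highest. For Fosb against the soft library and Jun against the intermediate library, the difference was within counting error. The part of the macrophage shift in the AP-1 values was not tested, and in bulk RNA more cells of a type and more RNA per cell cannot be told apart.

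The 300 bases around the start sites of 4 of the genes are given here because these genes carried the main differences: Fosb was highest on the intermediate plate, and Maff, Atf3 and Fos had the highest ratios of stiff to soft. Each window runs from 250 bases before to 50 bases after the start of the Ensembl canonical transcript in GRCm39, 5′ to 3′ on the gene's strand. The annotated spans of Atf3 and Maff reach further upstream than these starts, and gene counts do not show which start was used. Capitals mark the cyclic AMP response element TGACGTCA and its core TGACG, on either strand (CGTCA on the reverse).
Fosb, chr7:19043927-19044226, minus strand: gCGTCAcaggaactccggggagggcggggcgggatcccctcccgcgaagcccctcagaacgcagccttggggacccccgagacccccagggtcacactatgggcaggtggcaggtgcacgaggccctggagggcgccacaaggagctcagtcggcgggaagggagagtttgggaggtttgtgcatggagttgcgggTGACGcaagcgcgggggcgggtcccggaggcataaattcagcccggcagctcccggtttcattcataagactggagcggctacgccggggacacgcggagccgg
Maff, chr15:79231470-79231769, plus strand: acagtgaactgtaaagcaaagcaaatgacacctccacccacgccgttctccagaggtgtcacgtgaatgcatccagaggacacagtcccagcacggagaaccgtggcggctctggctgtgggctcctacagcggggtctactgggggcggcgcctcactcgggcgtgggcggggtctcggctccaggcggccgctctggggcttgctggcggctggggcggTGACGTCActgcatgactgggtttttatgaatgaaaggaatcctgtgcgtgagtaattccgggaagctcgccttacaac
Atf3, chr1:190915488-190915787, minus strand: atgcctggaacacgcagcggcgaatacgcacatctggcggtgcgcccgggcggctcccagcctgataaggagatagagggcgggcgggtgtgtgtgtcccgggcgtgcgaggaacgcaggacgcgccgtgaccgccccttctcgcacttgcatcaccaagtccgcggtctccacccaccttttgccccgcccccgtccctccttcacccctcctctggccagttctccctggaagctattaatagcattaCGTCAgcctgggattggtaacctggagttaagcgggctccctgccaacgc
Fos, chr12:85520408-85520707, plus strand: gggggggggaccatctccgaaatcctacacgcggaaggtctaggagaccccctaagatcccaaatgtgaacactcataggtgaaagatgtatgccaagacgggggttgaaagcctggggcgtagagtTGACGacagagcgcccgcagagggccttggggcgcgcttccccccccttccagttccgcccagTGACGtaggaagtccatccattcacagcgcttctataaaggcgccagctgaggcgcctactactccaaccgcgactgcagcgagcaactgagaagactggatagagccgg

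The core TGACG was found in the windows of 7 of the 9 genes (all but Fosl2 and Jun) and in 22.6% of the 21770 windows of protein-coding genes. In Fosb it lay 54 bases and, in reverse, 249 bases before the start, in Fos 60 and 123 bases before it, and in Atf3 it began, in reverse, at the first transcribed base. The full element TGACGTCA, which contains the core on both strands, was found in Maff, 29 bases before the start, and in Jund, 214 bases before it, against 2.44% of all windows. Jun held TGACATCA, the variant known from its promoter, 45 bases before the start, against 3.09% of all windows. TGACTCA was in none of the 9 windows and in 4.70% of all windows, and the CArG box, the letters bound by serum response factor, in none of the 9 and in 1.54%. These are matches of letters in a short window. Sites further from the start were not searched, so absence here holds for the window alone, and no binding was measured.

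Levels of different genes were compared as normalized counts per kb of transcript, where 1 read was worth between 0.943 and 1.03 normalized counts. On this scale Junb was the highest of the 9 genes in each library and Fosb the lowest, with Atf3 and Fos next above it. Junb, a Jun protein that often activates less strongly than Jun, stood at 4444 per kb at 0.2 kPa, 5058 at 8 kPa and 3867 at 64 kPa. The middle of the order was close. In the soft library Fosl2 at 1311 and Jund at 1280 per kb had overlapping counting intervals, and so had Fosl1 at 1416 and Fosl2 at 1411 in the intermediate library. In the stiff library Jund at 1971, Fosl1 at 1696 and Fosl2 at 1503 were apart, Maff at 1326 stood above Jun at 1144, and Fos was at 545.

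**Figure D1:**
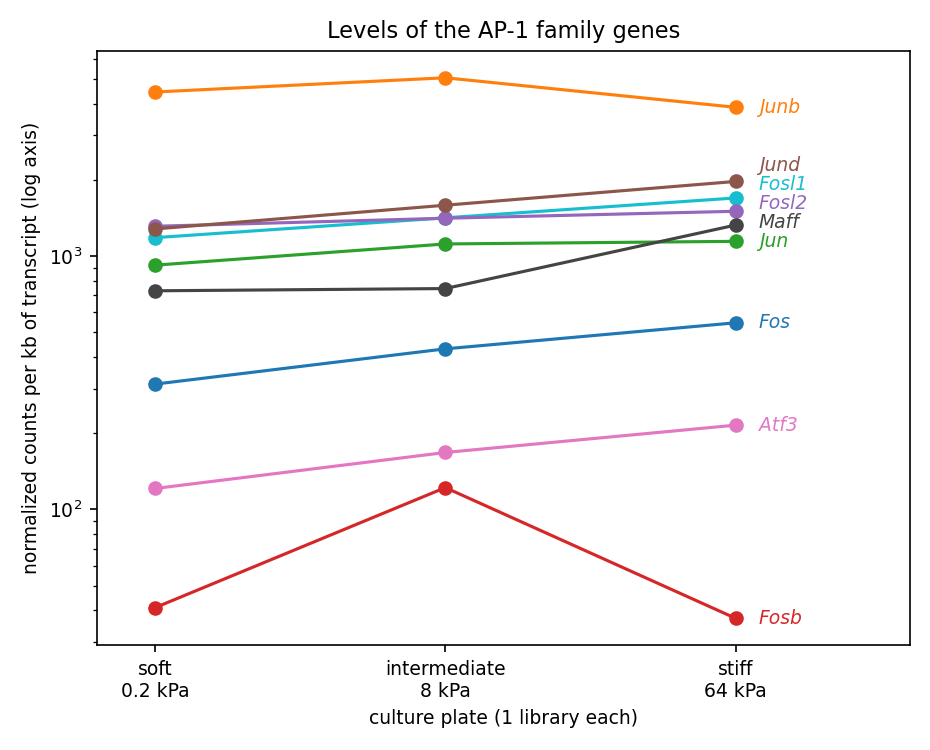
Normalized counts per kb of canonical transcript (log axis) for the 9 genes in the soft (0.2 kPa), intermediate (8 kPa) and stiff (64 kPa) library, 1 point per library. Fosb peaks at 122 per kb in the intermediate library, Maff steps up from 744 to 1326 only between the intermediate and stiff libraries, and Junb is the top line throughout.

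Profiles differed along the stiffness series. Fos, Fosl1, Fosl2, Jun, Jund, Atf3 and Maff were ordered soft, intermediate, stiff from lowest to highest, and this order of both steps above 0 was found in 30.2% of the 11873 genes. Fosb and Junb were highest on the intermediate plate, as were 23.2% of genes. All 9 genes were higher on the intermediate than on the soft plate, as were 53.5% of genes. The 7 genes other than Fosb and Junb were also higher on the stiff than on the soft plate, as were 51.1% of genes, and higher on the stiff than on the intermediate plate, again as were 51.1% of genes. With other scalings of the libraries the Maff ratio of intermediate to soft ranged from -0.01 to 0.03 and the Jun ratio of stiff to intermediate from -0.01 to 0.03, so the place of these genes in the order turns on the scaling. Subtraction of the trend of the ratios with transcript length and GC content put Fosl2 below 0 in every comparison, and Jun below 0 between stiff and intermediate, at -0.05 or -0.06.

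Among the Fos proteins, Fosb differed most between plates. It encodes a Fos protein and, by alternative splicing, a truncated form without the activating end, which gene counts cannot separate. The gene lies at chr7:19036621-19043976 on the minus strand of GRCm39 and has 4 exons. Fosb had 154.8 normalized counts (151 reads) at 0.2 kPa, 461 (489 reads) at 8 kPa and 140.5 (137 reads) at 64 kPa. The intermediate library stood apart, and the soft and stiff libraries did not differ beyond counting error. Intermediate to soft, the log2 ratio was 1.57 with a 95% interval (counting error only) from 1.31 to 1.85, a fold of 2.97. The ratio of stiff to intermediate was -1.71, from -2.00 to -1.44, and the stiff to soft ratio was -0.14, from -0.48 to 0.20.

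A gene was counted as past the fold when its log2 ratio reached 1 in size and its mean was at least 50. Between intermediate and soft, Fosb was the 1 member of 9 past it, where 0.16% of genes were higher and 0.00842% lower by that much. Between stiff and intermediate, Fosb was again the 1 member past it, on the lower side, beside 0.421% of genes lower and 0.825% higher. Both comparisons share the intermediate library. A gain and a loss of at least 0.5 around the intermediate plate were seen in 42 genes including Fosb, 0.354% of those counted.

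Fos, the founding member and a strong activator when paired with Jun, lies at chr12:85520658-85524047 on the plus strand, with 4 exons. It had 660.2 normalized counts at 0.2 kPa, 910 at 8 kPa and 1153 at 64 kPa, a gain at each step. The stiff to soft log2 ratio was 0.80, from 0.66 to 0.95, of which 57.5% was reached on the intermediate plate. Fos and Fosb, often induced together, thus parted between the intermediate and stiff plates, where Fos had a ratio of 0.34 and Fosb one of -1.71.

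Fosl1 and Fosl2 encode Fra-1 and Fra-2, Fos proteins without the strong activation domain of Fos. Fosl1, at chr19:5497575-5505974 on the plus strand with 4 exons, had 2204 normalized counts at 0.2 kPa, 2640 at 8 kPa and 3162 at 64 kPa. Its steps were of equal size, 0.26 and 0.26, and the ratio of stiff to soft was 0.52, from 0.44 to 0.60. It passed the lower fold of 0.5 only by a small margin, and with 4 other scalings its ratio ranged from 0.46 to 0.52, short of 0.5 under 3 of them. The gene Ccdc85b overlaps it on the other strand and had a ratio of -0.10. Fosl2, at chr5:32292707-32315186 on the plus strand with 4 exons, had 9147 normalized counts at 0.2 kPa, 9839 at 8 kPa and 10482.7 at 64 kPa. Its ratio of stiff to soft was 0.20, from 0.16 to 0.24. Fosl2 has the longest transcript of the 9 genes, 6975 bases, and with the length and GC trend subtracted by a local linear fit the ratio was -0.19.

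The canonical transcripts of the Jun genes have 1 exon each. Jun, at chr4:94937271-94940459 on the minus strand, had 2936 normalized counts at 0.2 kPa, 3561 at 8 kPa and 3647 at 64 kPa. Most of its gain lay in the first step, with a log2 ratio of 0.28, from 0.21 to 0.35, against 0.03, from -0.03 to 0.10, in the second. The antisense gene Junos overlaps Jun and had a stiff to soft ratio of 0.25. Jund, at chr8:71151599-71153265 on the plus strand, encodes the Jun protein that is usually present in resting cells. It had 2133 normalized counts at 0.2 kPa, 2647 at 8 kPa and 3286 at 64 kPa, with steps of 0.31 and 0.31 and a ratio of stiff to soft of 0.62, from 0.54 to 0.70. Junb, at chr8:85701113-85705359 on the minus strand, went the other way on the stiff plate. It had 8039.5 normalized counts at 0.2 kPa, 9149.9 at 8 kPa and 6996 at 64 kPa, with a ratio of intermediate to soft of 0.19, from 0.14 to 0.23, and of stiff to intermediate of -0.39, from -0.43 to -0.34. Its span overlaps that of Prdx2 on the other strand, and the strand setting of the counting is not given in the sources used here. Prdx2 had ratios of 0.02 and -0.18 in the same steps.

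Atf3 and Maff complete the set. Atf3, induced by many stresses and a repressor as a homodimer, lies at chr1:190902493-190950241 on the minus strand, and its canonical transcript has 4 exons. It had 239.9 normalized counts at 0.2 kPa, 333 at 8 kPa and 427 at 64 kPa. Its steps of 0.47 and 0.36 were close to those of Fos, 0.46 and 0.34, and its ratio of stiff to soft was 0.83, from 0.60 to 1.07. Maff, at chr15:79230821-79243276 on the plus strand (3 exons in the canonical transcript), encodes a small Maf protein that binds DNA but lacks an activation domain of its own. It had 1428 normalized counts at 0.2 kPa, 1457 at 8 kPa and 2596 at 64 kPa. The soft and intermediate libraries did not differ beyond counting error, and the stiff library stood apart. Its log2 ratio of stiff to intermediate was 0.83, from 0.74 to 0.92, and that of stiff to soft was 0.86, from 0.77 to 0.96. As deposited, 3.40% of the stiff to soft ratio was reached on the intermediate plate, and from -0.81% to 3.76% under the other scalings, against a median of 44.2% over all genes higher by at least 0.5.

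Between stiff and soft no member passed a log2 ratio of 1, where 3.22% of genes were higher and 0.387% lower by that much. At the lower fold of 0.5 the members Fos, Fosl1, Jund, Atf3 and Maff, 5 of 9, were higher and none was lower, beside 11.8% of genes higher and 3.77% lower. The count was 4, without Fosl1, under 3 of the 4 other scalings and with the trend subtracted as a median of neighbouring genes. In the first step at 0.5 Fosb alone passed, with 3.94% of genes higher, and in the second Maff was higher, with 5.42% of genes, and Fosb lower, with 3.42%. No member gained at least 0.5 in each step, which 1.04% of genes did, and none lost as much in each, which 0.0421% did. At least 0.25 in each step was gained by Fos, Fosl1, Jund and Atf3, 4 of 9, beside 5.73% of genes, and by 3, without Fosl1, under 3 of the 4 other scalings and both versions of the trend correction. The median log2 ratio of the 9 members was 0.52 for stiff to soft, 0.28 for intermediate to soft and 0.26 for stiff to intermediate, beside 0.00, 0.01 and 0.01 over the 14291 genes with a mean of at least 10.

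**Figure D2:**
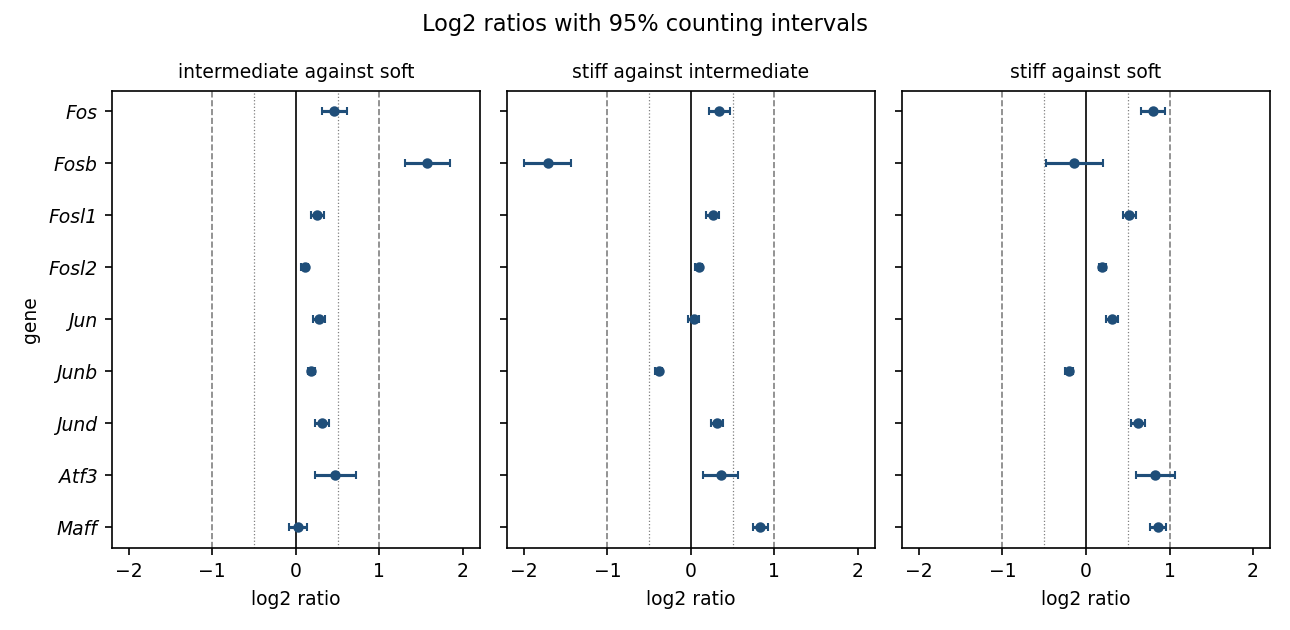
Log2 ratios of the 9 genes in the 3 comparisons, with 95% counting intervals as bars (counting error only). Dashed lines mark a log2 ratio of 1 in size and dotted lines 0.5. Fosb lies past 1 upward between intermediate and soft and downward between stiff and intermediate, and 5 genes lie between 0.5 and 1 for stiff against soft.

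The makeup of each subfamily was measured as shares of summed reads per kb, which do not depend on the scaling between libraries. In the Jun subfamily, Junb took 66.9% at 0.2 kPa, 65.2% at 8 kPa and 55.4% at 64 kPa. Jund took 19.3%, 20.5% and 28.2% in the same order, and Jun 13.9%, 14.4% and 16.4%. Without division by length Jun took 22.4%, 23.2% and 26.2% and Jund 16.3%, 17.2% and 23.6%, so that Jun was above Jund in every library, while the order of the plates stayed the same for each gene. The stiff library stood apart from the other two: its 95% interval for Junb ran from 54.6% to 56.2%, against 64.4% to 65.9% in the intermediate library. In the Fos subfamily, Fosl1 and Fosl2 together held most of the reads per kb. Fosl2 took 46.1%, 41.7% and 39.7% and Fosl1 41.5%, 41.9% and 44.9%. Without division by length the share of Fosl2 was 75.2%, 71.0% and 70.2%, and Fosl2 was then above Fosl1, at 18.1%, 19.1% and 21.2%, in every library. Fos took 12.7% on the intermediate and 14.4% on the stiff plate, more on both than on the soft plate, and 5.43%, 6.57% and 7.72% without division by length. Fosb took 1.44%, 3.61% and 0.98%.

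**Figure D3:**
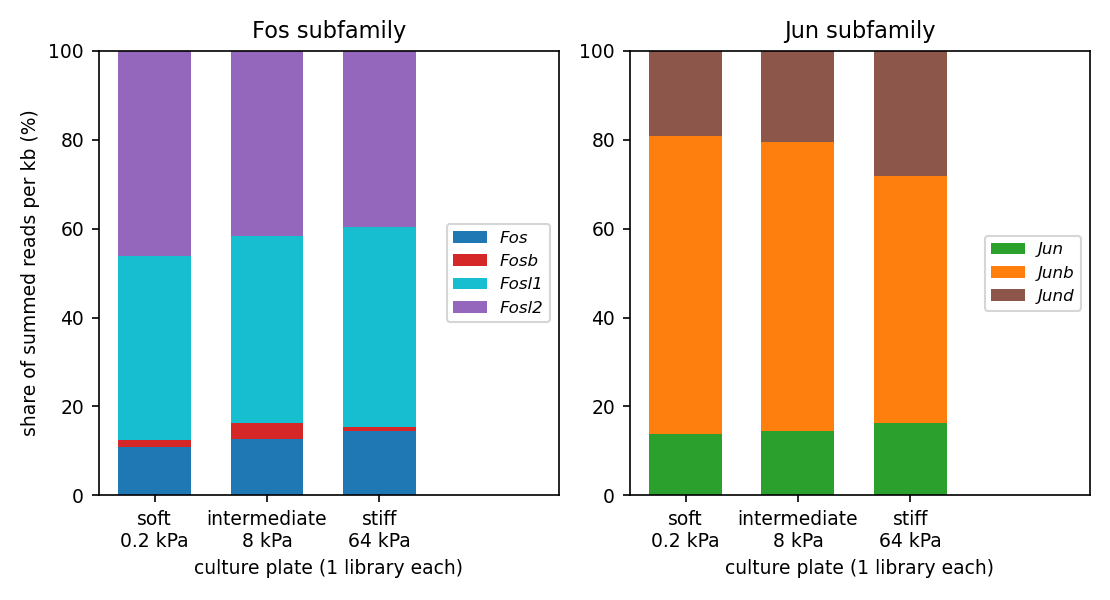
Shares (%) of summed reads per kb of the 4 Fos genes (left) and the 3 Jun genes (right) in each library. The Junb block shrinks from 66.9% to 55.4% between the soft and stiff libraries while that of Jund widens from 19.3% to 28.2%, and Fosb is a thin band that is widest, at 3.61%, in the intermediate library.

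The sum of the 4 Fos genes was 2847 normalized counts per kb at 0.2 kPa, 3379 at 8 kPa and 3781 at 64 kPa, a gain at each step. The sum of the 3 Jun genes was 6645, 7762 and 6982, highest on the intermediate plate. The Jun sum was 2.33 times the Fos sum at 0.2 kPa, 2.30 times at 8 kPa and 1.85 times at 64 kPa. This ratio rests on the transcript lengths: without division by length it was 1.08, 1.11 and 0.93 in the same order, so that the Jun sum was then below the Fos sum in the stiff library. On both scales it was lowest there.

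Genes with the most similar profile were taken as those nearest in the plane of both steps, over 3 libraries, among genes averaging at least 100 normalized counts. For Fosb these were Egr3, Nr4a3 and Sox5, at distances of 0.67, 0.86 and 0.98 on the log2 scale, and no gene lay within 0.1. Egr3 and Nr4a3 are immediate early genes, a zinc finger factor and an orphan nuclear receptor. Egr3 had 1324 normalized counts at 0.2 kPa, 2495 at 8 kPa and 856 at 64 kPa, and Nr4a3 had 130.2, 240.4 and 105. For Maff the nearest were Ccn1, a matricellular protein gene, the phosphatase gene Dusp10 and the receptor gene P2ry6, and 21 genes lay within 0.1. Ccn1 had 12272 normalized counts at 0.2 kPa, 12518 at 8 kPa and 22746 at 64 kPa. The profiles of Fos, Atf3, Jund and Fosl1 were common ones, with 87, 81, 183 and 242 genes within 0.1. Plxna2 was among the 3 nearest of both Fos and Atf3.

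**Figure D4:**
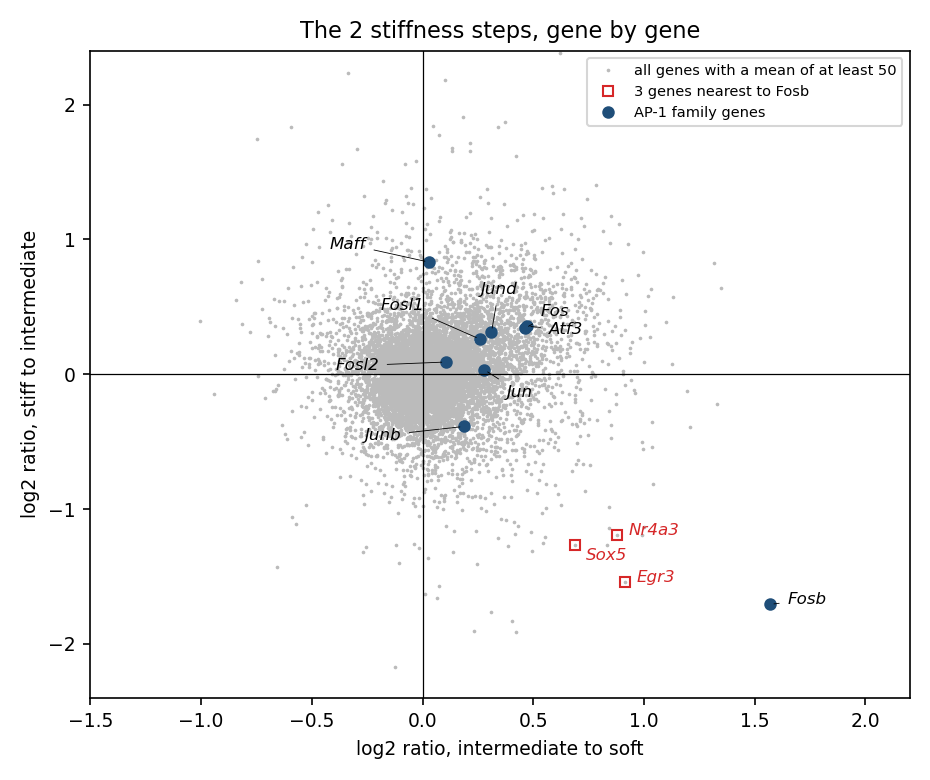
Log2 ratio of intermediate to soft (x axis) against that of stiff to intermediate (y axis), with grey points for genes with a mean of at least 50, 4 of which lie outside the axes. The intermediate library enters the axes with opposite signs. Fosb lies alone at 1.57 and -1.71, with Egr3, Nr4a3 and Sox5 (squares) nearest to it, and Maff lies on the upper vertical axis, at 0.03 and 0.83.

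A fixed list held 21 other immediate early genes. Egr2, Egr3, Nr4a3 and Arc, 4 of 21, had the profile of Fosb, with a gain of at least 0.5 and then a loss of at least 0.5, beside 0.354% of all genes (Egr2 is named because the count was small, after its values were seen). Arc, whose protein acts at synapses, had 239 normalized counts at 0.2 kPa, 492 at 8 kPa and 279 at 64 kPa. Ccn2, a matricellular gene, was higher on the stiff plate alone, with 23626 normalized counts at 0.2 kPa, 22575 at 8 kPa and 54585 at 64 kPa. Between stiff and soft, 7 of the 21 were higher and 1 lower by at least 0.5, beside 11.8% and 3.77% of all genes, and the median log2 ratio of the list was 0.25. Sgk1, a kinase gene, had a ratio of 0.04.

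Other bZIP factors that can pair with AP-1 proteins or compete with them were counted in the same way. Of 17 that averaged at least 50, 6 were higher and none lower by at least 0.5 between stiff and soft, beside 11.8% and 3.77% of all genes, and the median over the 19 that averaged at least 10 was 0.27. Creb5, a factor of the ATF2 group, was the 1 gene of 17 past a log2 ratio of 1 between stiff and soft, where 3.22% of genes were higher by that much, with 109.7 normalized counts at 0.2 kPa, 156.5 at 8 kPa and 284 at 64 kPa. Nfe2l2 encodes NRF2, a partner of small Maf proteins, and had a ratio of stiff to soft of 0.03, while Nfe2l1 had one of 0.23.

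Genes of the kinases and factors that act upstream of AP-1 mostly differed by less than 0.5 at the RNA level, as did most genes. None of 29 passed a log2 ratio of 1 in any comparison, which is near the share over all genes, at most 3.22% in either direction. Between stiff and soft 5 were higher and 2 lower by at least 0.5, beside 11.8% and 3.77% of all genes, with a median of 0.16, which was 0.09 to 0.16 under the other scalings. Kinase activity was not measured. Of 9 genes for turnover or inhibition of AP-1 proteins, none passed 0.5 between stiff and soft, beside 11.8% of all genes higher and 3.77% lower, or between stiff and intermediate, beside 5.42% and 3.42%. Between intermediate and soft 1 did, beside 3.94% of all genes higher. This was Trib1, a partner of Cop1, with a ratio of 0.51, named after its values were seen. Between stiff and soft, Cop1, a ubiquitin ligase that acts on Jun, had a ratio of -0.06 and Gsk3b, a kinase that marks Jun for degradation, one of 0.24.

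Genes known as AP-1 targets showed no single direction. Between intermediate and soft, 2 of 29 were higher and none lower by at least 0.5, beside 3.94% and 0.657% of all genes, with a median of 0.14. Both, Lif and Ereg, were then lower by at least 0.5 on the stiff plate, as Fosb was (named after their values were seen). Between stiff and soft, 8 of 29 were higher and 5 lower by at least 0.5, beside 11.8% and 3.77% of all genes, and the median over 30 genes was 0.12. With other scalings this median was 0.06 to 0.12. Between stiff and intermediate 4 were higher and 9 lower, beside 5.42% and 3.42% of all genes, with a median of -0.13. Between stiff and soft, 3 of the 29 passed a log2 ratio of 1, all lower in the stiff library, beside 0.387% of genes lower and 3.22% higher. These were Mmp3, Mmp13 and Spp1. Mmp3, the gene of stromelysin, had 43770.3 normalized counts at 0.2 kPa, 33751 at 8 kPa and 19885 at 64 kPa. Mmp13, a collagenase gene, had 18731 at 0.2 kPa, 20166 at 8 kPa and 9233 at 64 kPa, so that it was lower on the stiff plate alone. Spp1, the gene of osteopontin, had 316083 at 0.2 kPa, 262242 at 8 kPa and 140702 at 64 kPa. Timp1, an inhibitor of metalloproteinases, had a ratio of stiff to soft of -0.25. Mmp3, Mmp13 and Spp1 were thus lower on the stiff than on the soft plate, while 8 of the 29 targets were higher by at least 0.5. Among the AP-1 genes, Fos, Fosl1, Jund, Atf3 and Maff were higher and Junb was lower, at -0.20. Fosb, at -0.14, did not differ beyond counting error.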

How the data were processed

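The 3 deposited files held 1 and the same table, whose columns are named by the sample titles. Its values are signal values, gene counts that the authors divided by a size factor per library, as the file names and the submitters' processing notes (DESeq2 1.34.0) say. Those notes also name bcl2fastq 2.20.0, STAR 2.7.9a, featureCounts of Subread 2.0.1 and the build GRCm39. The annotation and strand setting are not given in the sources used here. All values were whole multiples (within 0.01) of the smallest positive value of their column, 100.0% in each, which recovered whole reads.

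Log2 ratios used the deposited values with a pseudocount of 1, which understates changes of low genes. Intervals are exact 95% Clopper-Pearson intervals of the reads shared between 2 libraries, or exact Poisson intervals of a level, and leave out everything but counting error, as reads copied by amplification are not separate molecules. No test was possible with 1 library per stiffness. Lengths, GC contents and exon numbers are those of GENCODE vM39 canonical transcripts, matched by symbol or identifier for 14045 of the 14291 genes that averaged at least 10. Coordinates of genes are those of the whole annotated gene, which can be longer than the canonical transcript. Besides cell type markers and genes overlapping a member, named genes were the 9 members, the 3 nearest genes of each member reaching 0.5 in a comparison (given for Fosb and Maff, with Plxna2 for Fos and Atf3), and, of the fixed lists, genes past a log2 ratio of 1 and the 2 with the highest counts. The 2 with the highest counts in the list of upstream kinases and factors are not reported here. The members, lists and alternatives were chosen with earlier results of these data known. Marker lists for fibroblasts, endothelial, mural, skeletal muscle, and mast, basophil and cytotoxic cells had stiff to soft medians of 0.12, 0.86 (2 genes), 0.24 (4 genes), 0.28 (2 genes) and -0.61 (1 gene), of which those for fibroblasts and mural cells were -0.10 and -0.11 with the length and GC trend subtracted by the local fit. That for telocytes was 0.18 (6 genes). The counting step and the trend fits were tested on simulated data. The software was scipy 1.17.1, pandas 2.3.3, numpy 2.4.6 and matplotlib 3.10.9 under Python 3.11.15.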

Additional observations from a re-analysis of the deposited data

How the results depend on the processing

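No replicate could be left out and no count model fitted, with 1 library per stiffness. No paired analysis was possible because each stiffness had 1 library and the labels carry no replicate numbers. The numbers of members past the fold were the same with pseudocounts of 0.1 and 10, under 4 other scalings, under both versions of the length and GC correction and with other minimum means. They depended on the threshold by construction. At a log2 ratio of 0.5 they were 5 for stiff against soft, all higher, beside 11.8% of genes higher and 3.77% lower. For stiff against intermediate they were 2, Maff higher and Fosb lower, beside 5.42% and 3.42% of genes. At 2 they were 0 for intermediate against soft and 0 for stiff against intermediate, and the share of all genes was not counted. With 0.25 per step 4 members gained over both steps, beside 5.73% of genes, where 0 did at 0.5, and 3 did under 3 of the 4 scalings and both trend corrections. Of 27 member ratios, 21 kept within their counting intervals under all 8 alternatives tried on them. Those that left it belonged to Fosl2, Jun and Junb, and 5 ratios, all of Fosl2, Jun or Maff, changed sign. The Fosl2 ratio of stiff to soft was -0.22 with the median of the 200 nearest genes subtracted and -0.19 with the local fit over 300 genes. The cause was not tested. With 137 to 489 reads, Fosb had the widest counting intervals of the members in every comparison.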
